A study of Mus musculus with 24 samples.

Results

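The question here was what tamoxifen changed in the muscle of male mice that carry no Cre recombinase. The study deleted Numb and Numbl in skeletal muscle fibres by giving tamoxifen to mice with floxed alleles of both genes and a transgene called HSA-MCM, a Cre fused to an oestrogen receptor domain and driven by the human skeletal actin promoter. The 6 libraries described here come from males of genotype Numb(f/f)/NumbL(f/f) without the transgene, called flox males below although their titles read WT. They are 3 vehicle libraries, numbered 2702, 2704 and 2751, and 3 tamoxifen libraries, numbered 2721, 2735 and 2737. They were chosen by genotype, sex and treatment, never by a measured value, and they are 6 of 24 libraries in the series. RNA came from whole gastrocnemius, a mostly fast calf muscle. Both groups carry the floxed alleles, so no group is free of them. Beside them stand 6 males that carry HSA-MCM together with Numb(f/f) and NumbL(f/f), here transgene males, with 3 libraries after tamoxifen (1055, 1062 and 1085) and 3 titled vehicle (1039, 1063 and 1080) whose treatment field nevertheless says tamoxifen. A separate count table holds 6 Numb(f/f)/NumbL(f/f) females, here flox females, with 3 libraries per treatment. The sources used here do not give age, the tamoxifen dose or the time between dosing and sampling.

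Tamoxifen is a selective oestrogen receptor modulator: it occupies the receptor's ligand pocket and, depending on the tissue, blocks or mimics oestrogen. Cre fused to a mutated receptor domain stays in the cytoplasm until tamoxifen or its active metabolites release it into the nucleus, which is why the drug is used to time gene deletion. The drug also binds enzymes of cholesterol synthesis, accumulates in lysosomes, and is cleared by cytochrome P450, flavin monooxygenase and sulfotransferase enzymes. Animals that receive it but lack Cre are therefore the measure of what the drug does apart from recombination.

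The flox male libraries held 21516819 to 29982077 counts, and 29125 of 54752 gene IDs had a count in at least 1 of them. Myh4, the fastest myosin heavy chain, took the largest share in each library. Esr1 lay at 23.4 to 43.1 counts scaled to library size, as CPM, in the 6 flox males and at 640 to 2012 CPM in the 6 transgene males, the transgene itself carrying an oestrogen receptor sequence. Counts from mitochondrial genes made up 10.5% to 11.3% of the vehicle and 9.498% to 10% of the tamoxifen libraries, without overlap. Vehicle 2751 stood apart from the other vehicle libraries: its counts differed from those of 2702 and 2704 by a chi-square of 21.2 and 22.2 per degree of freedom, against 8.34 between 2702 and 2704.

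The floxed genes come first, since both groups carry the alleles and neither carries Cre. Numb lay at 20.6, 19.6 and 17.5 CPM after vehicle and at 16.0, 16.8 and 16.3 CPM after tamoxifen. All 3 tamoxifen values lay below the vehicle values, but the log2 difference of -0.23 ± 0.10 (SE) did not pass (adjusted p = 0.233). Numbl lay at 4.09, 4.38 and 3.55 CPM after vehicle and at 5.24, 6.62 and 5.32 CPM after tamoxifen, a log2 difference of 0.51 ± 0.18 that did not pass either (adjusted p = 0.153).

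Of 15628 genes tested, 452 (2.89%) changed at an adjusted p under 0.05 in edgeR's quasi-likelihood test with Benjamini-Hochberg adjustment over all of them: 211 (1.35%) rose and 241 (1.54%) fell. The change was at least 2-fold in 183 (1.17% of genes tested). In all 452 genes the 3 vehicle and 3 tamoxifen values did not overlap, which was also the case for 27.8% of all genes tested (13.2% higher and 14.5% lower after tamoxifen). The median log2 difference over all genes tested was -0.0055, and 49.1% lay above 0. Most called genes (408) were protein coding. Exons of 148 called genes overlap those of another gene, and since the strand setting of the counting is not given, counts of such genes cannot be assigned with certainty. The count rested on the libraries used: it was 208, 246 and 143 without tamoxifen 2721, 2735 and 2737, and 145, 296 and 349 without vehicle 2702, 2704 and 2751. Without 2751, 262 of the 349 genes were among the 452.

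**Figure D1:**
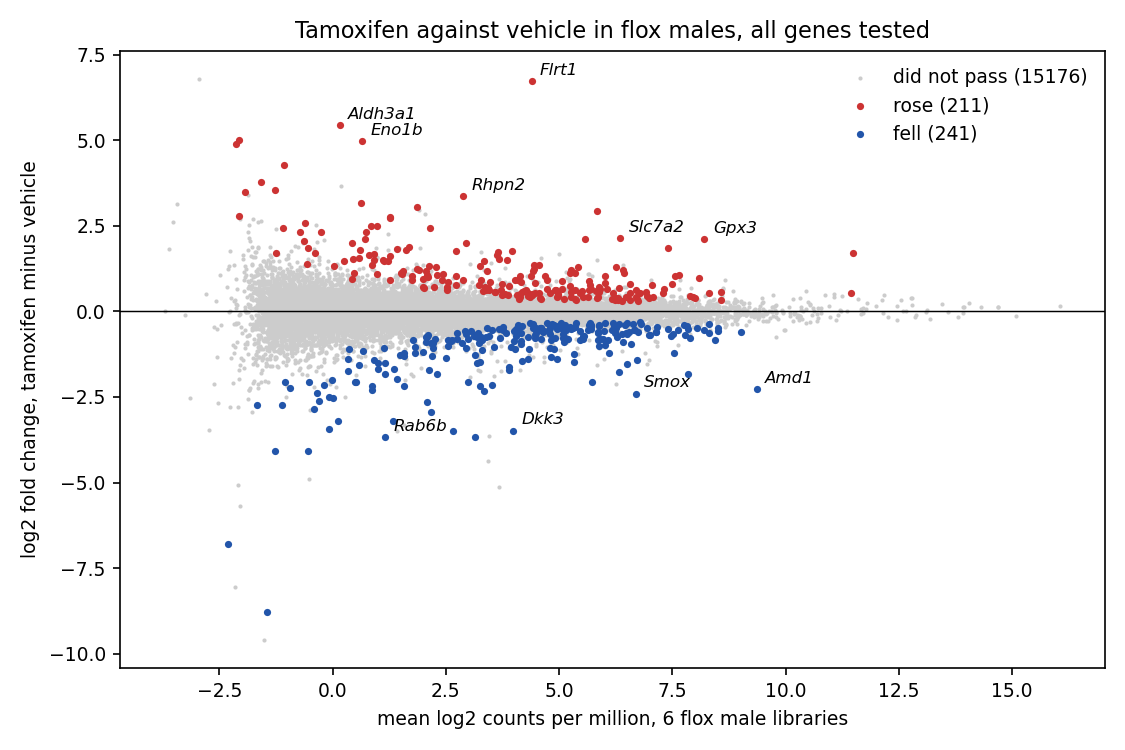
Each point is a gene: mean log2 CPM over the 6 flox male libraries (x) against the log2 difference of tamoxifen minus vehicle (y), with genes that rose at an adjusted p under 0.05 in red (211), genes that fell in blue (241) and the others in grey. Flrt1 lies far above other genes of its level, at a log2 difference of 6.73, and Amd1, Smox and Dkk3 are the labelled well-expressed genes among the falls.

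Flrt1, on chromosome 19 at chr19:7092001-7105729 (GRCm38, minus strand), encodes a leucine-rich transmembrane protein that modulates fibroblast growth factor signalling and binds Unc5 receptors. It lay at 1.72, 2.37 and 1.92 CPM after vehicle and at 215, 218 and 209 CPM after tamoxifen. The means were 2.00 ± 0.33 and 214 ± 4.49 CPM (SD, n = 3), a log2 difference of 6.73 ± 0.21 with an adjusted p of 2.8e-09. Every tamoxifen library lay far above every vehicle library, and the tamoxifen libraries differed little among themselves. The same step was present in transgene males, at 3.32, 3.73 and 3.81 CPM against 171, 289 and 273 CPM. In flox females the values were 1.003, 2.21 and 1.49 CPM after vehicle and 43.1, 8.49 and 53.6 CPM after tamoxifen, again without overlap, with a log2 difference of 4.48 ± 0.92 that did not pass on its own (adjusted p = 0.368).

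Unc5a, a netrin receptor whose relatives bind Flrt proteins, moved the other way in flox males. It lay at 8.26, 9.01 and 21.5 CPM after vehicle and at 1.53, 2.22 and 1.30 CPM after tamoxifen, a log2 difference of -2.94 ± 0.37 (adjusted p = 0.0031). Its exons overlap those of Hk3. All 6 transgene males, at 19.7 to 24.3 CPM, and all 6 flox females, at 19.5 to 27.8 CPM, lay above the flox male tamoxifen libraries. They also lay above flox male vehicle 2702 and 2704. Unc5a did not pass in transgene males (0.08 ± 0.30) or in flox females (-0.14 ± 0.15).

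Rhpn2, which encodes a scaffold protein, rose from 1.88, 3.37 and 1.64 CPM to 25.1, 23.2 and 23.5 CPM, a log2 difference of 3.36 ± 0.26 (adjusted p = 6.08e-05). Gpx3, the secreted glutathione peroxidase, rose from 144, 173 and 115 CPM to 622, 655 and 575 CPM, a log2 difference of 2.10 ± 0.16 (adjusted p = 2.42e-05). Slc7a2, a transporter of arginine, lysine and ornithine, rose from 41.3, 34.9 and 41.0 CPM to 162, 138 and 217 CPM, a log2 difference of 2.14 ± 0.16 (adjusted p = 2.86e-05). Exons of Rhpn2 and Slc7a2 overlap those of Faap24 and Gm26584. In each of these genes the lowest tamoxifen library lay more than 3-fold above the highest vehicle library.

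Other large rises were Arrdc2, an arrestin-domain protein, with a log2 difference of 2.93 ± 0.48 (adjusted p = 0.0152), and Stum, with 3.04 ± 0.42 (adjusted p = 0.00369). Fbp2, the muscle fructose-bisphosphatase that runs a glycolytic step backwards, rose from 26.9, 18.4 and 23.8 CPM to 96.5, 103 and 97.2 CPM, a log2 difference of 2.11 ± 0.22 (adjusted p = 0.000847). Cyp4f39, a cytochrome P450 of fatty acid hydroxylation, had a log2 difference of 2.74 ± 0.37, and Lrfn4, a synaptic adhesion protein, one of 2.00 ± 0.20. Chst2, Ccdc141 and Stc2 completed the list of rises chosen by size, at log2 differences of 2.49 ± 0.49, 2.42 ± 0.32 and 2.12 ± 0.40. Chst2 lost its call in 7 of 18 other analyses, which used another tool, scaling or filter or left out libraries.

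**Figure D2:**
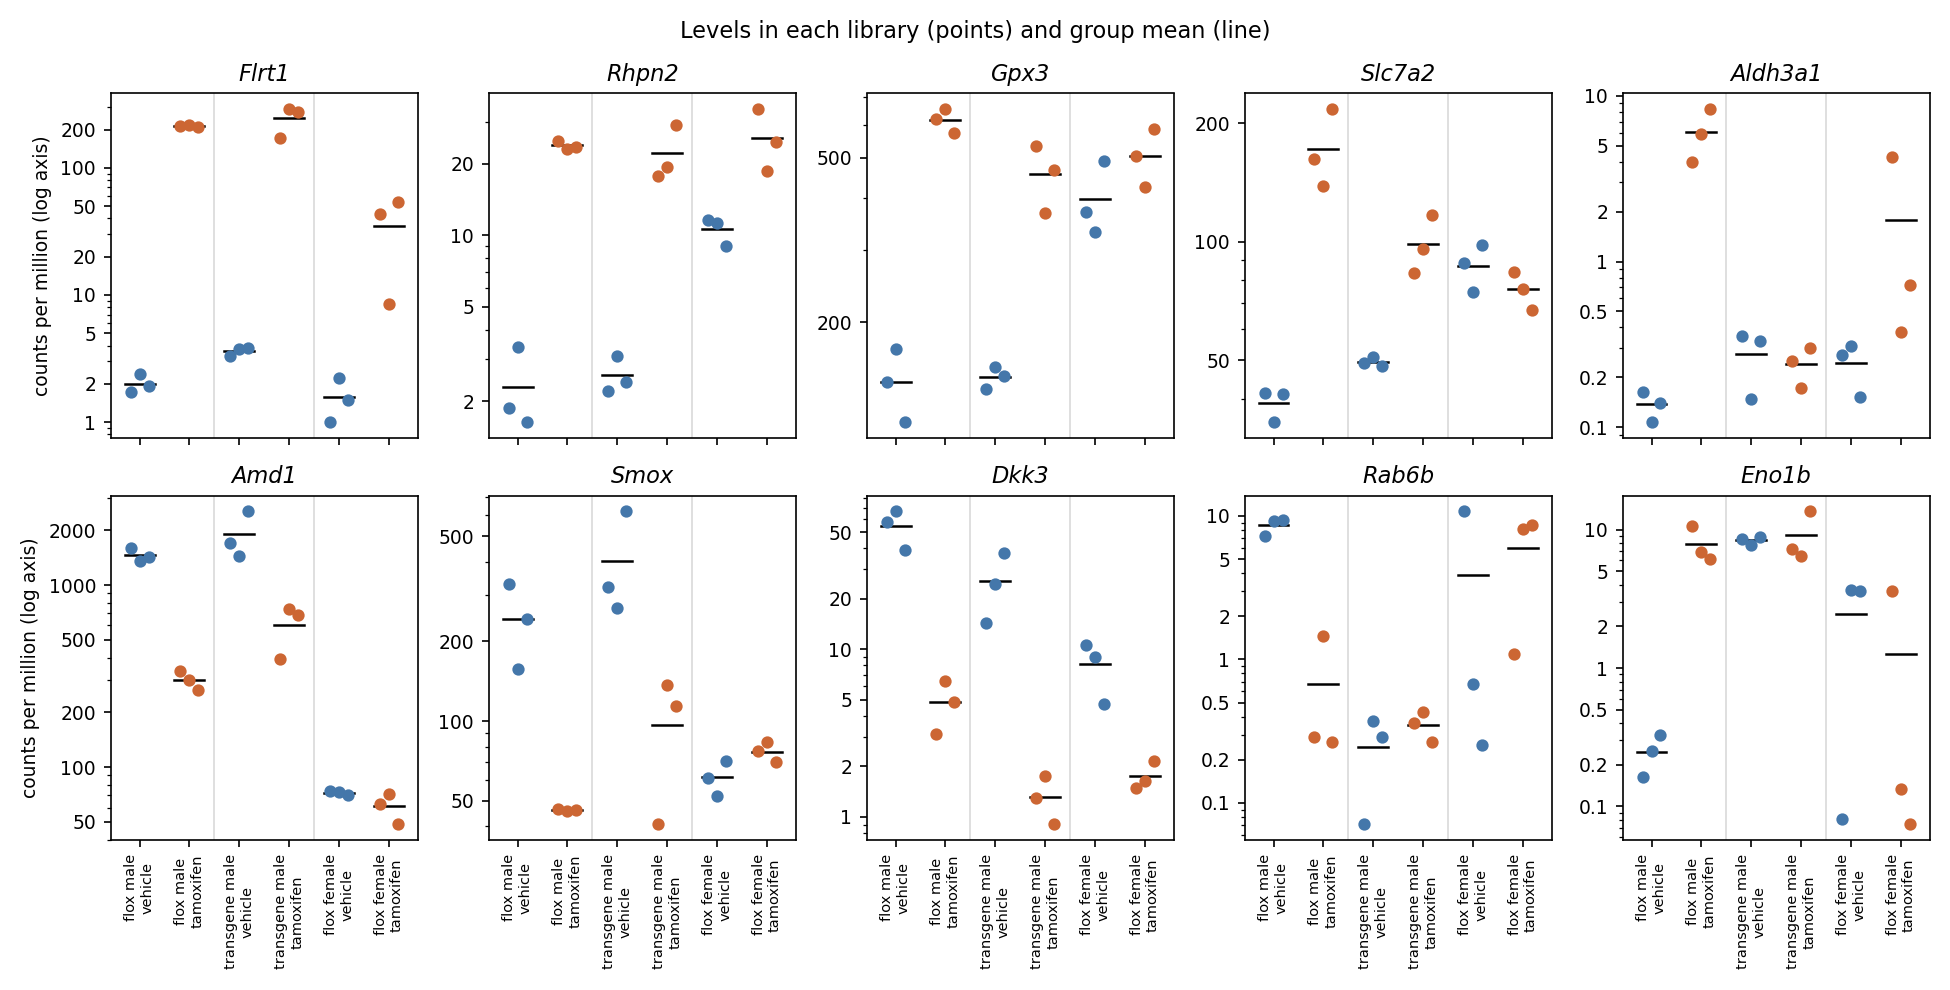
Each panel is a gene, each point a library and each line a group mean, in CPM on a log axis, with vehicle in blue and tamoxifen in orange. Flox males are at the left, transgene males in the middle and flox females at the right. Flrt1, Rhpn2, Gpx3 and Slc7a2 separate the treatments in both kinds of male, Aldh3a1 in flox males but not in transgene males, and Rab6b and Eno1b show high and low libraries in both treatment groups of the females.

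Among the falls, Dkk3, a secreted Dickkopf protein, lay at 57.1, 66.5 and 38.9 CPM after vehicle and at 3.14, 6.51 and 4.86 CPM after tamoxifen, a log2 difference of -3.48 ± 0.40 (adjusted p = 0.00305). St3gal1, a sialyltransferase, showed the smallest p of the falls: 28.7, 29.5 and 30.3 CPM against 15.5, 13.02 and 12.8 CPM, a log2 difference of -1.10 ± 0.10 (adjusted p = 7.95e-05). Smtnl2, a smoothelin-like protein of striated muscle, fell from 417, 425 and 460 CPM to 134, 130.5 and 105 CPM, with a log2 difference of -1.82 ± 0.17 (adjusted p = 0.000156). Slc15a5, a peptide transporter family member, and Npnt, the basement membrane ligand nephronectin, fell with log2 differences of -2.32 ± 0.28 and -1.72 ± 0.23. The complement component C7 fell with a log2 difference of -3.19 ± 0.65 (adjusted p = 0.0313) but lost its call in 7 of 18 other analyses. Odf3l2 passed narrowly with -3.66 ± 0.79 (adjusted p = 0.0488). Its vehicle values were 17.9, 17.4 and 74.5 CPM, and it lost its call in 15 of 18 analyses, including the one without 2751.

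Amd1, a gene of polyamine synthesis, had the highest vehicle mean of the 241 genes that fell. Polyamines are small cations made from ornithine and decarboxylated S-adenosylmethionine, and genes of this pathway are known to respond to androgens in rodent muscle. Amd1, the decarboxylase that supplies the aminopropyl groups (chr10:40287458-40302186, minus strand), lay at 1606, 1353 and 1420.1 CPM after vehicle and at 337, 301 and 265 CPM after tamoxifen. The means were 1460 ± 131 and 301 ± 36.1 CPM (SD, n = 3), a log2 difference of -2.28 ± 0.25 (adjusted p = 0.00104). Smox, the spermine oxidase, lay at 329, 158 and 244 CPM after vehicle and at 46.3, 45.8 and 46.2 CPM after tamoxifen, a log2 difference of -2.40 ± 0.49 (adjusted p = 0.0376). Its vehicle libraries spread over a more than 2-fold range, its tamoxifen libraries hardly at all, and its call was lost in 8 of 18 other analyses. Azin1, an inhibitor of the antizymes that degrade ornithine decarboxylase, fell from 48.3, 42.0 and 56.2 CPM to 30.3, 25.1 and 28.4 CPM, a log2 difference of -0.81 ± 0.16 (adjusted p = 0.0173).

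Amd2 fell with a log2 difference of -2.15 ± 0.30 (adjusted p = 0.00505), and the pseudogenes Amd-ps3 and Amd-ps4 with -2.30 ± 0.31 and -2.18 ± 0.31. These are near-identical copies of Amd1, so their counts may come from Amd1 reads and are not independent of it. In all, 4 of 16 polyamine genes tested fell (25.0%, beside 1.54% of all genes tested) and 0 rose, and the median of the 16 was 0.03. The 4 include Amd2, so they are not 4 independent falls. The spermine synthase Sms had a log2 difference of -0.86 ± 0.21 that missed the threshold (adjusted p = 0.0524). Ornithine decarboxylase, Odc1, did not pass: it lay at 229, 189 and 468 CPM after vehicle and at 286, 304 and 283 CPM after tamoxifen, with 2751 the highest of the 6. The count of 4 became 2 without tamoxifen 2735 or 2737 or vehicle 2702 or 2751. Of the 28 amino acid transporters tested, 1 rose (Slc7a2) and 2 fell (10.7% called, beside 2.89% of all genes tested). The falls were Slc7a1, another carrier of arginine and lysine, with -0.92 ± 0.17 (adjusted p = 0.0142), and Slc38a4, a carrier of neutral amino acids, with -1.78 ± 0.37 (adjusted p = 0.0356). Slc38a4 lost its call in 10 of 18 other analyses and Slc7a1 in 3. The number of falls was 0 without vehicle 2702 or tamoxifen 2721 or 2735, 1 without vehicle 2704, tamoxifen 2737 or transgene 1039, 1062 or 1063, and 4 with DESeq2.

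Genes of the interferon response and of antigen presentation made up the list with the most falls among those followed. In bulk muscle, fewer cells of a type and less RNA per cell cannot be told apart. Interferons act through transcription factors that include Stat2 and Irf9 on promoters that hold an interferon-stimulated response element, and among their targets are guanosine triphosphatases of cell defence and the class I machinery that shows peptides to T cells. Of 43 members tested, 8 fell (18.6%) and 0 rose, beside falls of 1.54% among all genes tested. The median of the list was -0.65, and 4 members lay above 0. The tamoxifen values all lay below the vehicle values in 14 of the 43 members, beside 2273 of all 15628 genes tested (14.5%).

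In the class I machinery, B2m, the light chain of class I molecules, lay at 111, 76.2 and 85.8 CPM after vehicle and at 55.3, 47.8 and 49.6 CPM after tamoxifen, a log2 difference of -0.84 ± 0.17 (adjusted p = 0.0201). The heavy chains H2-D1 and H2-K1 fell with -0.65 ± 0.13 (adjusted p = 0.0195) and -0.67 ± 0.15 (adjusted p = 0.0396); they belong to a family of near-identical genes. Nlrc5, the activator of class I transcription, fell from 6.22, 4.06 and 2.99 CPM to 1.57, 1.49 and 2.39 CPM, with -1.27 ± 0.29 (adjusted p = 0.0356). Tap1 and Psmb9, which transport and cut peptides for class I, had log2 differences of -1.02 ± 0.30 and -0.97 ± 0.28 and did not pass.

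Among the defence genes, Tgtp2, an interferon-inducible guanosine triphosphatase, lay at 5.32, 4.13 and 2.15 CPM after vehicle and at 0.950, 0.613 and 0.965 CPM after tamoxifen, a log2 difference of -2.19 ± 0.36 (adjusted p = 0.00583). Its neighbour and near-copy Tgtp1 had -2.53 ± 0.54 (adjusted p = 0.0278), and counts of the pair may be exchanged. Iigp1, of the same class, lay at 30.7, 13.5 and 17.9 CPM after vehicle and at 4.75, 4.10 and 4.89 CPM after tamoxifen, a log2 difference of -2.17 ± 0.35 (adjusted p = 0.00845). Bst2, the tetherin that holds virus particles at the cell surface, had -0.82 ± 0.20 (adjusted p = 0.0489).

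The promoters of 4 of the 8 fallen genes held the response element, searched as GAAA, any 2 bases and GAAA on either strand in the 250 bases before the RefSeq start site (build GRCm38.p6). It was present in B2m, Bst2, Tgtp1 and Tgtp2, absent from H2-K1 and H2-D1, and Iigp1 and Nlrc5 were not matched to the promoter table. Of the list's 33 matched members 16 held it (48.5%), beside 3.46% of 27025 promoter genes, as the list is made of interferon targets. Of all 321 called genes with a promoter, 9 held it (2.80%). The sequences below are shown because they are fallen genes that hold this element, at 70 to 139 bases before the start; capitals mark it, and each is read 5′ to 3′ on the gene's strand. In B2m (chr2:122147437-122147686, plus strand) it begins 139 bases before the start. In Bst2 (chr8:71537473-71537722, minus strand) a pair of overlapping matches begin 130 and 124 bases before it, and in Tgtp2 (chr11:49064213-49064462, minus strand) the match begins 70 bases before it.
B2m: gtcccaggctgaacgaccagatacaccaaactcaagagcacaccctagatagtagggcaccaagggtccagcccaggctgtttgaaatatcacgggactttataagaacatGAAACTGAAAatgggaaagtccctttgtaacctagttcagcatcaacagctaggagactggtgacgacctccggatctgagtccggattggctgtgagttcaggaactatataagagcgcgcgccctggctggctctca
Bst2: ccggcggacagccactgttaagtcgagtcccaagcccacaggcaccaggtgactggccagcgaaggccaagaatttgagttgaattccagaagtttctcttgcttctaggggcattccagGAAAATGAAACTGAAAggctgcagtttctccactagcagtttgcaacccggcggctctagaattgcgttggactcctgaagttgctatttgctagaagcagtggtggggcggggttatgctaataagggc
Tgtp2: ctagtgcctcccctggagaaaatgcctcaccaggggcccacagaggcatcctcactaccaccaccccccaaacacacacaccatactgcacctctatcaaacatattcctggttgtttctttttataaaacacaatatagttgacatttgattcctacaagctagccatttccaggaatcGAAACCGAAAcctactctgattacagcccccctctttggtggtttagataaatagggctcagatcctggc

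Within the vehicle group the list was uneven. Vehicle 2702 held the highest of the 6 values for 35 of the 43 members. The number of falls was 2 without 2702, 3 without tamoxifen 2721 and 2 without tamoxifen 2735 or 2737, against 8 without 2751. It was 5 without the 3 transgene vehicle males. These enter the filter, the scaling and the estimate of spread, but not the group means compared. The 6 transgene males did not share the vehicle level of the flox males. B2m lay at 37.2 to 61.3 CPM and Iigp1 at 3.18 to 8.60 CPM in all 6, near the flox males given tamoxifen. In transgene males the list's median was 0.06, and 1 member rose and 0 fell. A difference between the responses of both kinds of male did not pass for any of the 8 fallen genes.

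**Figure D3:**
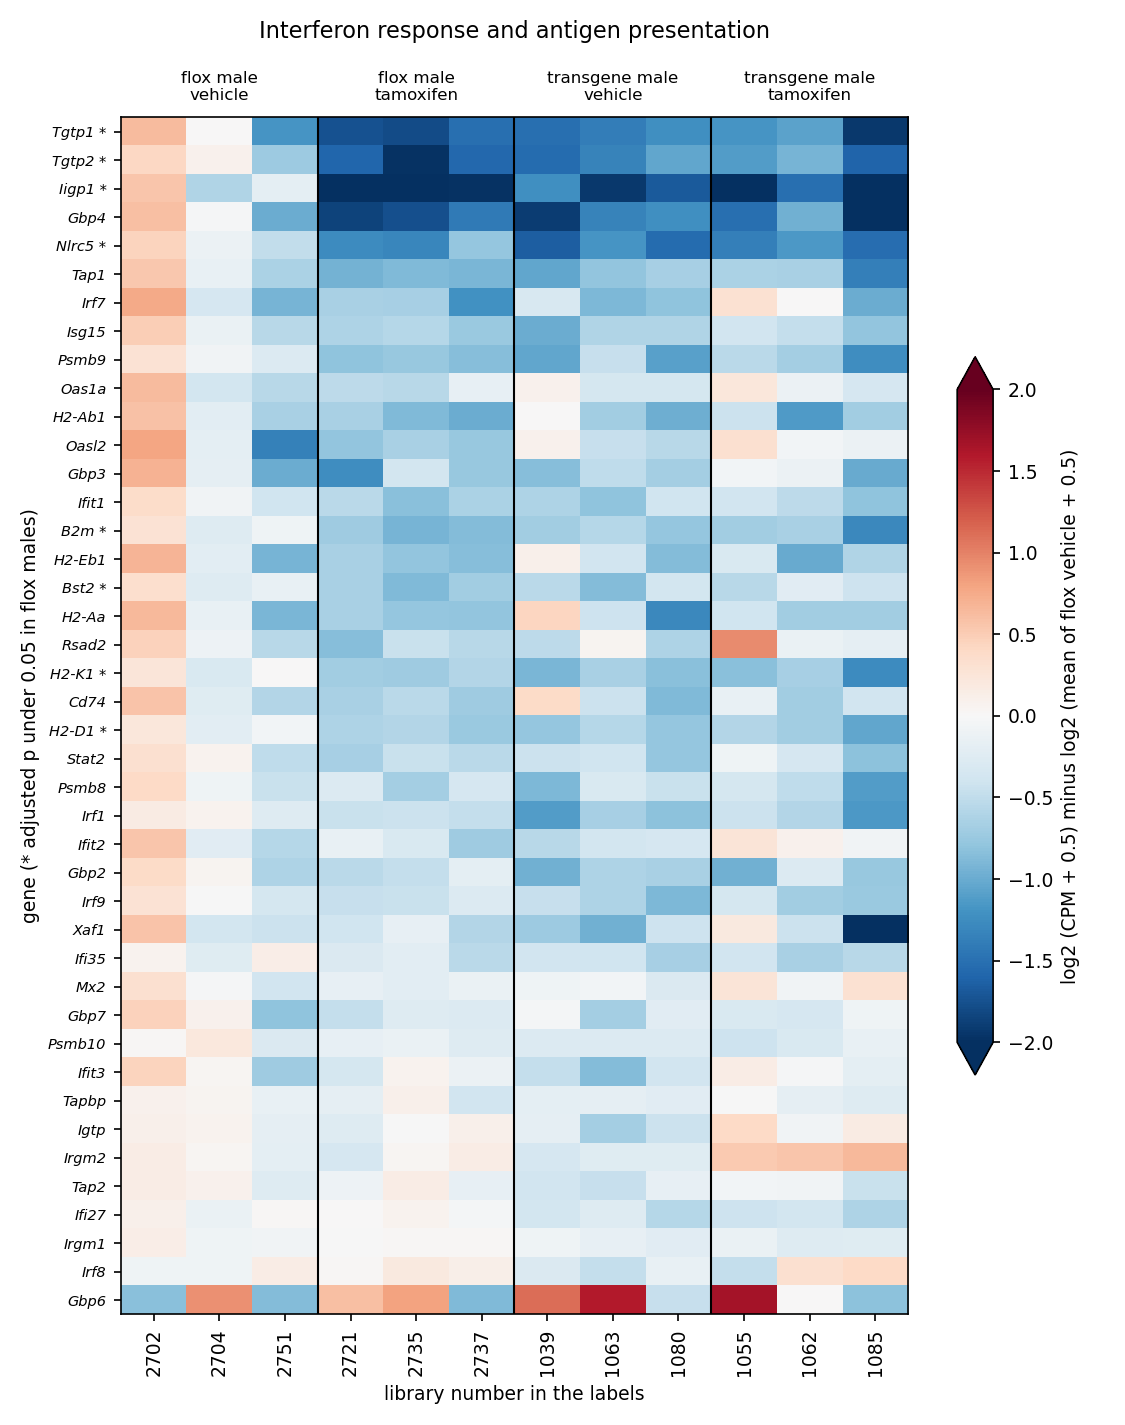
Rows are 42 of the 43 tested members of the interferon and antigen presentation list and columns the 12 male libraries; colour gives log2 (CPM + 0.5) relative to the mean of the flox vehicle libraries, from -2 (blue) to 2 (red), and a star marks an adjusted p under 0.05 in flox males. Vehicle 2702 lies above the flox vehicle mean in most rows, and the transgene libraries of both treatments are blue in the top 6 rows like the flox libraries given tamoxifen.

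Heat shock genes and chaperones, which refold damaged proteins, had a median of -0.48 over 28 members tested. Of these 3 fell (10.7%, beside 1.54% of all genes tested): Hsph1 with -1.53 ± 0.34 (adjusted p = 0.0475), Chordc1 with -0.64 ± 0.14 (adjusted p = 0.0296) and Unc45b, the myosin chaperone, with -0.47 ± 0.11 (adjusted p = 0.0458). Vehicle 2751 held the highest value for 25 of the 28. Hspa1a, the inducible Hsp70, lay at 11.0, 7.21 and 259 CPM after vehicle and at 7.18, 3.18 and 3.03 CPM after tamoxifen. Without 2751 the number of falls was 0, as it was without 2702, 2721, 2735 or 2737; without 2704 it was 5, and without transgene vehicle 1039 or 1063 it was 1.

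Genes of foreign compound metabolism made up the list with the most rises among those followed. The aryl hydrocarbon receptor and related receptors switch on such genes, whose products oxidise, conjugate and export drugs. Of 27 members tested, 7 rose (25.9%) and 0 fell, beside rises of 1.35% among all genes tested, and the median was 0.36. Aldh3a1, an aldehyde dehydrogenase known as an aryl hydrocarbon receptor target, lay at 0.164, 0.108 and 0.140 CPM after vehicle, which are 4, 3 and 3 counts, and at 4.005, 5.86 and 8.31 CPM after tamoxifen. The log2 difference was 5.43 ± 0.40 (adjusted p = 2.42e-05). Cyp1a1, the classic target of that receptor, lay at 0.450, 0.861 and 0.468 CPM after vehicle and at 1.65, 1.57 and 1.36 CPM after tamoxifen, with 1.34 ± 0.29 (adjusted p = 0.0297). Tiparp, which limits the receptor's activity, rose from 29.7, 29.0 and 28.4 CPM to 49.8, 48.9 and 46.4 CPM, with 0.73 ± 0.09 (adjusted p = 0.00104).

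Conjugating and oxidising enzymes rose too. Gstm2, a glutathione transferase, rose from 25.5, 32.7 and 19.5 CPM to 59.2, 55.9 and 55.7 CPM, with 1.14 ± 0.15 (adjusted p = 0.00261). Its relative Gstm1 had 0.54 ± 0.12 (adjusted p = 0.026), the flavin monooxygenase Fmo2 1.04 ± 0.19 (adjusted p = 0.0138) and the sulfotransferase Sult1a1 0.81 ± 0.18 (adjusted p = 0.0285). Adh1, an alcohol dehydrogenase outside the list, rose with 1.51 ± 0.18 (adjusted p = 0.00132). The letters TNGCGTG, the core of the receptor's element, were in 0 of 6 risen members with a promoter, beside 4.76% of all promoter genes. Aldh3a1 was not matched. Only the stretch before the start site that was used for the interferon list was searched, so elements further upstream would be missed. At that share of promoters, 0 of 6 is also likely without any link to the receptor. The search therefore cannot tell whether the receptor acted on these genes. The number of rises was 3 without vehicle 2702 or tamoxifen 2735, and 4 without vehicle 2751 or tamoxifen 2721 or 2737. In transgene males the list's median was 0.12, and 1 member, Tiparp, rose and 0 fell. In flox females the median was 0.06. Fmo2 had 0.12 ± 0.19 in transgene males and -0.01 ± 0.11 in flox females, and Gstm2 0.56 ± 0.15 and 0.01 ± 0.10. None of these Fmo2 and Gstm2 values passed.

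In the circadian clock, Arntl (Bmal1) with Clock or Npas2 drives the Per and Cry repressors, while Dbp, Tef and Hlf act on D-box elements and Nr1d1 on Arntl itself. Of 22 clock genes tested, 2 rose and 1 fell (13.6% called, beside 2.89% of all genes tested), with a median of 0.22. The number of rises was 1 without vehicle 2702 or tamoxifen 2721 or 2737 and 5 without vehicle 2751; the number of falls was 0 without 2702, 2704, 2735 or 2737 and 2 without 2751. Per3 rose from 15.9, 30.8 and 30.3 CPM to 56.9, 58.3 and 61.5 CPM, a log2 difference of 1.199 ± 0.20 (adjusted p = 0.0084). Arntl lay at 25.3, 17.8 and 8.23 CPM after vehicle and at 5.70, 2.99 and 3.63 CPM after tamoxifen, with -2.07 ± 0.40 (adjusted p = 0.0262), and lost its call in 7 of 18 other analyses; its exons overlap those of Gm45355. Dbp, at 37.2, 79.1 and 92.8 CPM against 118, 123.3 and 104 CPM, had 0.72 ± 0.32 and did not pass, nor did Per1 or Nr1d1. The hour of sampling is not given in the sources used here, and its part in these values was not tested.

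The Per3 promoter held the D-box TTATGTAA, searched on either strand, at 205 and 158 bases before the start (chr4:151044666-151044915, GRCm38.p6, minus strand). Among the 18 clock genes with a promoter it was the only one to hold these letters, as did 0.977% of all promoter genes. The E-box letters CACGTG, searched in the same way, were in 5 of the 18 (27.8%), beside 6.86% of all promoter genes. The called clock genes with a promoter, Arntl and Per3, did not hold the E-box. The sequence is shown because Per3 was the clock gene with the smallest p; capitals mark the D-box letters.
Per3: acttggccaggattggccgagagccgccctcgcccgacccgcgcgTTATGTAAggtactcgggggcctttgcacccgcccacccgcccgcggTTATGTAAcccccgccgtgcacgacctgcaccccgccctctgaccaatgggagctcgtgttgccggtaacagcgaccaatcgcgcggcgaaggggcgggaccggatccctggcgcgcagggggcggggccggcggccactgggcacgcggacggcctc

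Glucocorticoids raise a further set of muscle genes. Of 20 tested, 3 rose (15%, beside 1.35% of all genes tested) and 0 fell, with a median of 0.31: Sesn1 with 0.91 ± 0.13 (adjusted p = 0.00332), Cebpd with 1.64 ± 0.24 (adjusted p = 0.00496) and the kinase Sgk1 with 0.55 ± 0.11 (adjusted p = 0.0152). Cebpd, a transcription factor of acute stress, lay at 7.44, 5.81 and 7.90 CPM after vehicle and at 21.1, 20.9 and 23.7 CPM after tamoxifen. In transgene males it lay at 41.8, 22.7 and 26.8 CPM after vehicle and at 22.9, 14.2 and 21.7 CPM after tamoxifen, with -0.63 ± 0.23 (adjusted p = 0.333). In flox females it lay at 11.1, 6.75 and 10.2 CPM after vehicle and at 15.2, 14.6 and 17.4 CPM after tamoxifen, without overlap, with 0.75 ± 0.17 (adjusted p = 0.252). The vehicle libraries of flox males and flox females were lower than any transgene library. The exons of Cebpd overlap those of Spidr. Fkbp5 and Pdk4, both known to respond to glucocorticoids, had 0.10 and -0.11 and did not pass. The number of rises was 5 without vehicle 2751 and 2 without vehicle 2702 or tamoxifen 2737.

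Of 31 genes of the FoxO, ubiquitin ligase and autophagy list, 4 rose (12.9%, beside 1.35% of all genes tested) and 0 fell. Foxo3, the transcription factor of muscle atrophy, rose from 21.3, 25.5 and 27.4 CPM to 46.4, 42.5 and 47.0 CPM, with 0.87 ± 0.15 (adjusted p = 0.0077). Gadd45a, induced by stress and denervation, rose from 7.85, 8.26 and 9.02 CPM to 25.5, 28.0 and 32.4 CPM, with 1.77 ± 0.23 (adjusted p = 0.00304). The mitophagy receptor Bnip3l and the protease Ctsl rose by less, with 0.38 ± 0.09 and 0.34 ± 0.07. The atrophy ligases Trim63 and Fbxo32 had -0.09 and 0.27 and did not pass. The number of rises was 2 without vehicle 2702 or 2704 or any of the 3 tamoxifen libraries. In the denervation list 1 of 24 rose (4.17%, beside 1.35% of all genes tested) and 0 fell. Over this list 8 lay above 0 and 16 below, with a median of -0.14. The rise was Ncam1, with 0.73 ± 0.18 (adjusted p = 0.0492). It lost its call in 10 of 18 other analyses, among them those without each of the 6 flox male libraries and without transgene vehicle 1039 or 1063.

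In each of these other stress and signalling lists 1 or 2 members were called, beside 2.89% of all genes tested. In the antioxidant list 1 of 32 rose (3.12%), Gpx3. Of 26 genes of the unfolded protein response 1 rose (3.85%), the transcription factor Xbp1, from 45.4, 39.0 and 55.1 CPM to 72.8, 74.0 and 79.3 CPM, with 0.70 ± 0.11 (adjusted p = 0.00505); the list's median was -0.21. Of 30 insulin and IGF genes 1 rose and 1 fell (6.67% called): Tbc1d1, which restrains glucose transporter traffic, with 1.29 ± 0.21 (adjusted p = 0.00845), and Igf1 with -0.74 ± 0.18 (adjusted p = 0.0497). Igf1 lost its call in 11 of 18 other analyses, among them limma-voom and those without vehicle 2702 or 2751, any of the 3 tamoxifen libraries, or transgene 1062, 1063 or 1085. It was also the fall among 24 oestrogen and androgen signalling genes (4.17%), where 0 rose; Esr1 itself had 0.58 ± 0.32 and did not pass. Among 25 p53 targets 1 rose (4%), Sesn1.

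Cholesterol synthesis and the lysosome are other known sites of action of the drug. Of 31 genes of cholesterol synthesis and sterol regulation 2 fell (6.45%, beside 1.54% of all genes tested) and 0 rose, among them the regulator Srebf1, from 53.2, 66.6 and 57.9 CPM to 33.7, 40.6 and 34.1 CPM, with -0.71 ± 0.15 (adjusted p = 0.0281). Synthesis enzymes did not pass; Msmo1 and Sqle had -0.67 and -0.64. The number of falls was 0 without vehicle 2704 or tamoxifen 2721 or 2737, 1 without vehicle 2702, and 4 without transgene 1055 or with DESeq2. Of 30 lysosomal genes (6.67% called, beside 2.89% of all genes tested) 1 rose, Ctsl, and 1 fell, the cholesterol exporter Npc1, from 83.8, 85.1 and 78.6 CPM to 48.5, 48.4 and 45.7 CPM, with -0.80 ± 0.17 (adjusted p = 0.0256). Npc1 lost its call without each of the 6 flox male libraries, and Ctsl without each of them but 2751.

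Of 24 secreted factors 4 fell (16.7%, beside 1.54% of all genes tested) and 0 rose, with a median of -0.36. Beside Dkk3 and Igf1 these were Gdf11, a relative of myostatin, with -1.29 ± 0.24 (adjusted p = 0.0164), and Ostn, the muscle peptide osteocrin, with -1.06 ± 0.25 (adjusted p = 0.047). Myostatin, Mstn, lay at 80.0, 94.8 and 225 CPM after vehicle and at 64.4, 51.9 and 61.8 CPM after tamoxifen, without overlap, and did not pass (adjusted p = 0.181). The number of falls was 1 without vehicle 2702 or any of the 3 tamoxifen libraries, and 2 without vehicle 2704 or 2751 or transgene library 1062 or 1063.

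Matrix genes had a median of -0.29 over 41 tested, of which 4 fell (9.76%, beside 1.54% of all genes tested) and 0 rose. They were the basement membrane collagens Col4a1 and Col4a2, with -0.88 ± 0.20 (adjusted p = 0.0445) and -0.75 ± 0.17 (adjusted p = 0.0376), the laminin chain Lamc1 with -0.42 ± 0.10 (adjusted p = 0.0376) and the collagen hydroxylase P4ha1 with -1.24 ± 0.26 (adjusted p = 0.0356). The fibrillar collagens Col1a1 and Col3a1 had -0.49 and -0.44 and did not pass. Col4a1 and Col4a2 share overlapping exons. The number of falls was 0 without vehicle 2702, tamoxifen 2721 or 2737 or transgene vehicle 1039, and 1 without transgene vehicle 1063. It was 2 without vehicle 2704 or transgene 1062 or 1085, and 8 without vehicle 2751. In transgene males the list's median was 0.29, and 1 member rose and 0 fell. In flox females the median was 0.016. Col4a1 and Col4a2 had 0.21 ± 0.20 and 0.10 ± 0.17 in transgene males and did not pass. A difference between the responses of both kinds of male did not pass for any of the 4 fallen genes.

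Of 35 sarcomere, Z-disc and costamere genes 2 rose and 1 fell (8.57% called, beside 2.89% of all genes tested). The M-band protein Myom2 rose from 2235, 2087 and 2587 CPM to 3535, 3125 and 3425 CPM, with 0.55 ± 0.12 (adjusted p = 0.0322), and its partner Obsl1 rose with 1.02 ± 0.16 (adjusted p = 0.00608). The sarcoglycan Sgcb fell with -0.32 ± 0.07 (adjusted p = 0.0344). Sgcb lost its call in 9 of 18 other analyses, among them those without each of the 6 flox male libraries, and Myom2 in 6, among them those without each of these but 2751. Both also lost it without transgene vehicle 1039. Fbp2 and Eno1b were the 2 rises among 39 glycolysis and glycogen genes tested (5.13%, beside 1.35% of all genes tested). In edgeR's quasi-likelihood test 0 of 248 members passed in 9 further lists, beside 2.89% of all genes tested, which were 15 slow and 17 fast fibre genes, 28 calcium handling genes, 38 of fatty acid oxidation, 44 nuclear genes of oxidative phosphorylation, 31 proteasome subunits, 23 immediate early genes, 20 myogenic factors and 32 Notch pathway genes, the pathway on which Numb acts. Of these 248, 36 (14.5%) had an unadjusted p under 0.05, beside 17.5% of all genes tested, DESeq2 called 10 and limma-voom 1. Of 11 septins 1 fell (9.09%, beside 1.54% of all genes tested), Sept9, with -0.58 ± 0.08 (adjusted p = 0.0033).

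**Figure D4:**
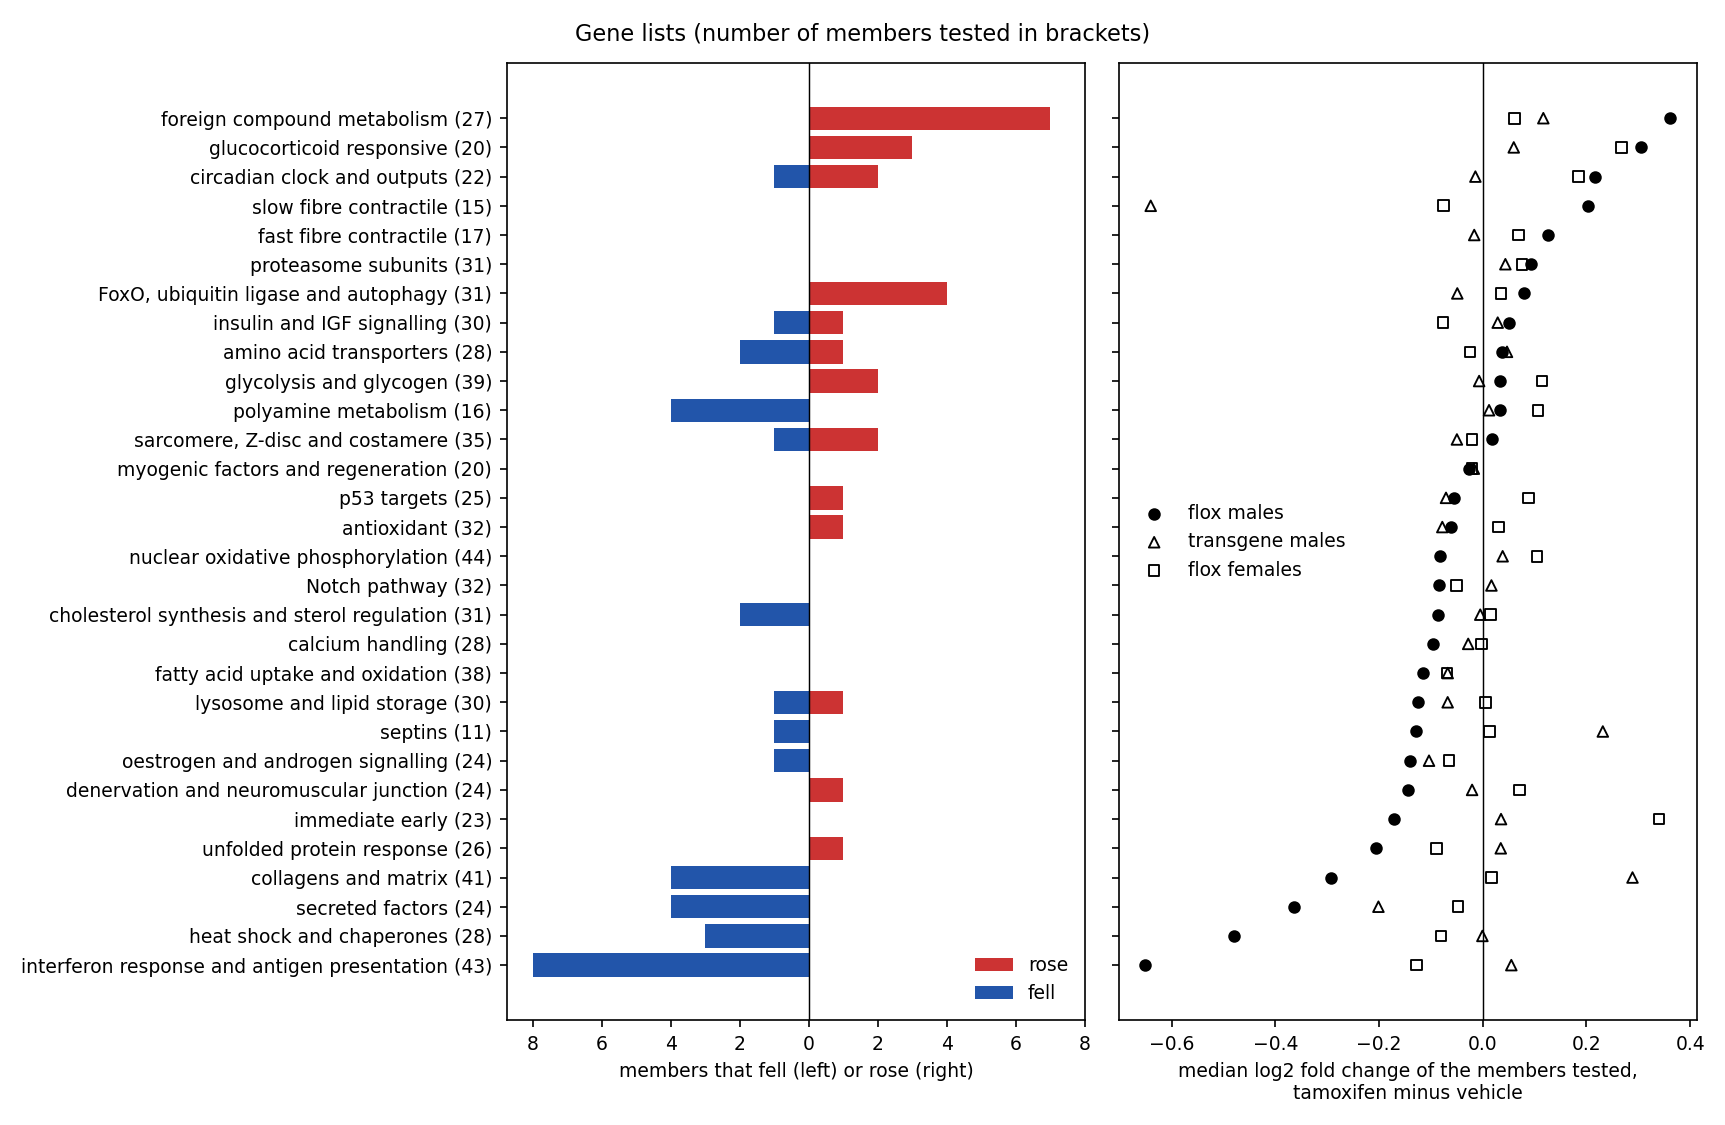
Left, the number of members of each of the pathway lists that fell (blue, leftward) or rose (red, rightward) in flox males; right, the median log2 difference of the tested members in flox males (filled circles), transgene males (triangles) and flox females (squares). Of the lists drawn, which leave out the cell type markers, the interferon list has the most falls (8) and the lowest flox male median (-0.65), and the foreign compound list the most rises (7) and the highest (0.36).

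Markers of other cell types in the muscle were followed as 12 lists, 1 of them for the muscle fibre itself, and 0 markers were at 0 in all 6 libraries. In 10 of the lists 0 of 95 members passed in edgeR's test, beside 2.89% of all genes tested. Of the 95, 11 (11.6%) had an unadjusted p under 0.05 in that test, beside 17.5% of all genes tested. DESeq2 called 3 of them and limma-voom 0. The summed CPM of 15 adipocyte markers was 572 to 662 after vehicle and 710 to 978 after tamoxifen, without overlap. Without Plin4 the sums were 370 to 458 and 324 to 585 CPM and overlapped. The list's call was Plin4, a lipid droplet protein that muscle fibres express as well, at 204, 171 and 211 CPM against 362, 393 and 386 CPM (log2 difference 0.96 ± 0.16, adjusted p = 0.00772); Adipoq, Plin1 and Fabp4, which define fat cells, had -0.08, 0.08 and 0.13 and did not pass. Adipoq lay at 8.55, 6.89 and 3.69 CPM against 1.61, 14.4 and 2.23 CPM, highest in tamoxifen 2735. Pck1 was also highest there, at 5.48, 2.98 and 2.52 CPM against 1.36, 23.9 and 2.66 CPM, with 1.34 ± 0.91, and did not pass. Over the 15 adipocyte markers 10 lay above 0 and 5 below, with a median of 0.07 and log2 differences from -0.63 to 6.79. Of 12 macrophage markers 0 passed, with a median of -0.29 and sums of 71.1 to 108 CPM after vehicle and 65.0 to 72.3 CPM after tamoxifen. The 5 lymphocyte markers tested all lay below 0, with a median of -0.67 and list sums of 7.39 to 11.2 and 3.33 to 7.72 CPM; Cd3e, of T cells, lay at means of 2.11 and 0.45 CPM. The macrophage and lymphocyte markers lay in the direction of the interferon list, and their part in it was not tested. Neutrophil markers did not: of 6 tested 5 lay above 0 and 0 passed, with a median of 0.31. Their list sums were 2.29 to 9.55 CPM after vehicle and 4.92 to 6.36 CPM after tamoxifen. Endothelial markers had a median of -0.22, with 11 of 12 below 0 and 0 passing, in the direction of the matrix list, and their part in it was not tested. Of 12 markers of fibroblasts and fibro-adipogenic progenitors 6 lay above 0 and 6 below, with a median of 0.0033 and 0 passing. Of 12 tendon markers 1 rose (8.33%, beside 1.35% of all genes tested) and 0 fell. Over this list 3 lay above 0 and 9 below, with a median of -0.32. The rise was Cilp, with 1.36 ± 0.28 (adjusted p = 0.0313), which lost its call in 9 of 18 other analyses. In transgene males Cilp had -0.96 ± 0.28 and did not pass (adjusted p = 0.206).

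Whether the same genes respond when the transgene is present was asked with the 6 transgene males, which share no library with the flox males. There, 139 genes (0.889%) passed. Library 1055 stood apart by a chi-square of 96.5 and 104 per degree of freedom from the other tamoxifen libraries, as did 1080, with 54.1 and 87.9 from the other vehicle libraries. Of the 452 genes that changed in flox males, 377 (83.4%) had the same sign in transgene males, beside 58.1% of all genes tested. In 92 genes both tests passed in the same direction, which is 20.4% of the flox and 66.2% of the transgene calls, and 0 passed in opposite directions. The 211 risen genes had medians of 0.90 in flox and 0.39 in transgene males, and the 241 fallen genes -0.78 and -0.27. These genes were chosen for passing in flox males, which pushes their flox medians away from 0. The sizes of the medians therefore cannot be compared. The tests in both kinds of male also shared an estimate of spread. Rhpn2 (3.10 ± 0.26), Gpx3 (1.63 ± 0.15), Amd1 (-1.65 ± 0.24) and Dkk3 (-4.27 ± 0.45) were among those that passed in transgene males too.

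**Figure D5:**
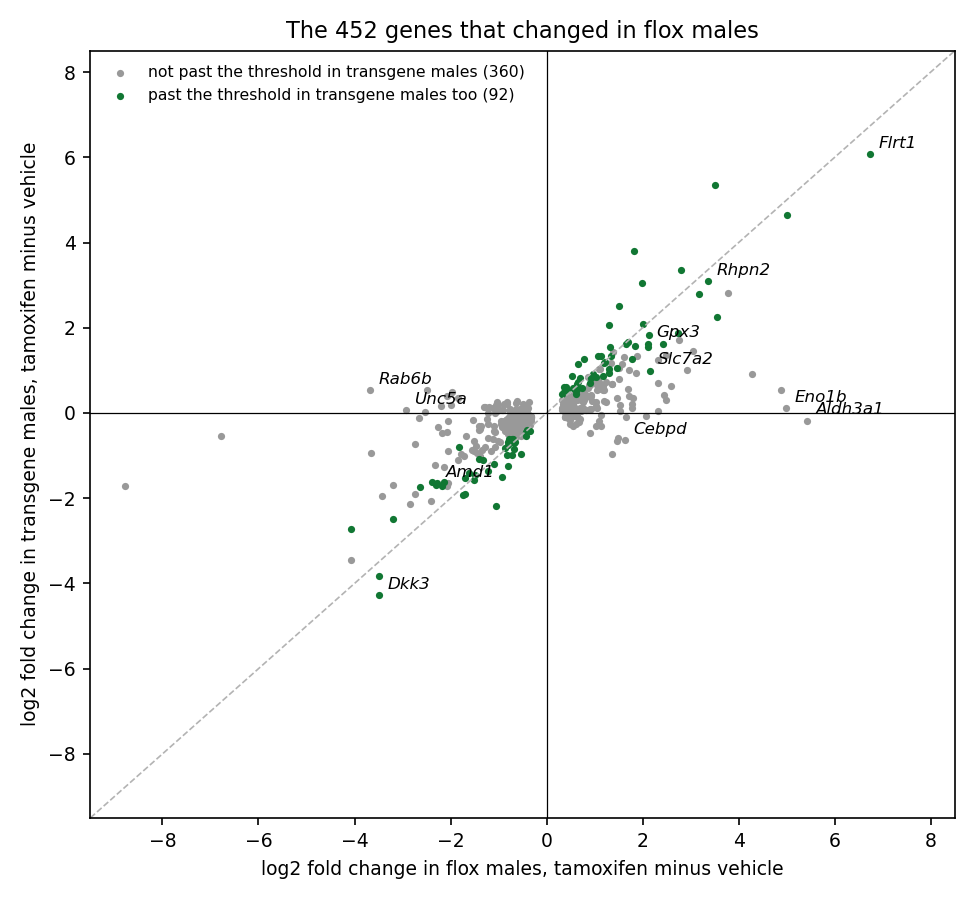
Each point is 1 of the 452 genes that changed in flox males, with the log2 difference of tamoxifen minus vehicle in flox males (x) and in transgene males (y); green marks the 92 that passed in transgene males too, and the dashed line marks equal values. Flrt1, Rhpn2 and Dkk3 lie near the line, while Aldh3a1 and Eno1b lie near 0 in transgene males.

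The difference between both responses passed for 2 of 15628 genes (0.0128%), both with a smaller response in transgene males; 1290 genes had an unadjusted p under 0.05. The count was 8 without flox vehicle 2751, 5 without tamoxifen 2735 and 4 without vehicle 2704 or transgene 1055. Aldh3a1 lay at 0.148 to 0.357 CPM in all 6 transgene males, with a difference of responses of -5.61 (adjusted p = 0.00644). For Eno1b, a gene similar to the glycolytic enolase Eno1, it was the vehicle libraries of the flox males that differed from other males. They lay at 0.164, 0.251 and 0.327 CPM, which are 4, 7 and 7 counts, while flox tamoxifen libraries lay at 10.7, 6.89 and 6.12 CPM and the 6 transgene libraries at 6.49 to 13.6 CPM. In flox females Eno1b lay at 0.0813, 3.67 and 3.61 CPM after vehicle and at 3.59, 0.134 and 0.0747 CPM after tamoxifen, so both treatment groups held high and low libraries. Rab6b, a small guanosine triphosphatase of Golgi traffic, showed a like pattern in reverse. It lay at 7.20, 9.26 and 9.35 CPM in flox vehicle males and at 0.289, 1.46 and 0.266 CPM after tamoxifen (log2 difference -3.68 ± 0.51, adjusted p = 0.00334), at 0.0713 to 0.429 CPM in all 6 transgene males, and at 10.8, 0.672 and 0.252 CPM and 1.09, 8.06 and 8.66 CPM in flox females after vehicle and tamoxifen.

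In flox females, 19 of 14539 genes (0.131%) passed, and 6 of them were among the male calls in the same direction. The 19 became 87 without female tamoxifen 1, 7 without tamoxifen 3, and 3, 9 and 8 without vehicle 1, 2 and 3. Of the 426 male calls tested in females, 326 (76.5%) had the same sign, beside 56.5% of all genes tested. Whether males and females differed was tested on the difference of the responses, although sex and count table cannot be told apart. It passed for 43 of 16194 genes (0.266%), with the male minus female difference above 0 in 25 and below 0 in 18. The 43 became 136 without female tamoxifen 1, 71 without male vehicle 2704, and 22 to 28 without male 2702, 2721 or 2737 or female vehicle 3 or tamoxifen 3. Polyamine genes were among them: Amd1 had a difference of -2.02 ± 0.18 (adjusted p = 9.91e-05), Smox of -2.71 ± 0.31 and Amd2 of -1.93 ± 0.28. Amd1 lay at 73.7, 72.8 and 70.2 CPM in female vehicle and at 63.1, 70.9 and 48.7 CPM in female tamoxifen libraries, below every male library, with levels set across 2 tables scaled separately. Smox lay at 52.3 to 83.2 CPM in the 6 females, between the 2 flox male groups.

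Among genes with a higher response in males, Slc7a2 lay at 67.2 to 98.0 CPM in the 6 females, above the male vehicle and below the male tamoxifen libraries, and its difference of responses was 2.36 ± 0.23 (adjusted p = 0.000518). Gpx3 lay at 331 to 587 CPM in the females, with a difference of 1.77 ± 0.24 (adjusted p = 0.00718). Gadd45a (1.90 ± 0.21) and Adh1 (1.66 ± 0.17) also had higher responses in males. For Gdap1 (-1.79 ± 0.17) and Smtnl2 (-1.58 ± 0.17) the signed difference, male minus female, was below 0. Smtnl2 had -1.82 ± 0.17 in flox males and -0.23 ± 0.13 in flox females, and Gdap1 -1.49 ± 0.35 and 0.32 ± 0.11. Dkk3 lay at 10.6, 9.04 and 4.72 CPM after vehicle and at 1.49, 1.63 and 2.17 CPM after tamoxifen in females, without overlap, and did not pass there (adjusted p = 0.0776). Stum, at 1.71, 2.13 and 1.44 CPM against 4.17, 5.03 and 5.87 CPM, rose in females too (adjusted p = 0.0285).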

How the data were processed

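The authors deposited raw read counts per gene for each library. The build was GRCm38 (mm10) and the tools named are STAR, featureCounts and limma, per the submitters' processing notes. The sources used here do not give versions, the strand setting or the handling of reads that match several genes. From these deposited counts, edgeR 4.0.16 (R 4.3.3) was run with TMM scaling, filterByExpr (minimum count 10, minimum total 15) and its robust quasi-likelihood test on all 12 male libraries, with Benjamini-Hochberg adjustment over all genes and a threshold of 0.05. CPM values use TMM-scaled library sizes; errors of log2 differences are standard errors. Differences of responses were interaction terms; the male and female flox libraries were fitted together for the comparison of sexes. Alternatives used DESeq2 1.42.0, limma-voom (3.58.1), other scaling, no filter, fewer libraries or a replicate block. The code was tested on simulated data. Genes were named by a rule: the 12 largest rises and 12 largest falls at a mean log2 CPM not below 0 and without overlap, the 10 smallest p, up to 4 called members of each list, and up to 6 per direction of each difference of responses; other list members are given with their values. A few genes that enter the counts are not reported here. Members and lists were chosen with earlier results of these data known. The labels do not say that each library is a separate animal, so the p-values reflect only how these libraries vary, which may be technical. The 3 transgene vehicle males were grouped by title.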

Additional observations from a re-analysis of the deposited data

Results flagged for a closer look

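The following results stand out because the response to tamoxifen differed between groups of animals in a test of the difference itself. Between transgene and flox males 2 genes passed, Aldh3a1 with a difference of responses of -5.61 on the log2 scale and Eno1b with -4.86. Neither passed with limma-voom (adjusted p = 0.167), nor did Aldh3a1 without transgene vehicle 1039. Between flox males and flox females 43 genes passed, although sex and count table cannot be told apart. Of those named here, the male minus female difference was above 0 for Slc7a2 (2.36), Rhpn2 (2.09), Gadd45a (1.90), Gpx3 (1.77), Adh1 (1.66), Pik3r1 (1.58), Gstm2 (1.14), Fmo2 (1.07), Sesn1 (0.98) and Foxo3 (0.83). It was below 0 for Smox (-2.71), Amd1 (-2.02), Amd2 (-1.93), Gdap1 (-1.79), Smtnl2 (-1.58), Npnt (-1.31) and Azin1 (-0.83). Of 17 other analyses, Rhpn2 lost its call in 11, Azin1 in 10, Gstm2 in 9, Npnt in 8, Fmo2 in 7, Foxo3 in 6, Sesn1 in 3 and Pik3r1 in 1, while the other 9 genes kept theirs. Gstm2 and Azin1 were among those that lost it with the replicate block in females. Gdap1 and Pik3r1 did not pass in flox males alone.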

How the results depend on the processing

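The 452 calls in flox males became 917 in a fit of the 6 flox males alone and 871 with DESeq2, of which 423 and 448 were among the 452, and ranged from 143 to 644 when 1 library was left out. The 2 calls between transgene and flox responses became 79 with DESeq2, 0 with limma-voom (1296 at an unadjusted p under 0.05) and 38 without the low count filter, and ranged from 2 to 8 when 1 library was left out. The 43 calls between males and females became 268 with DESeq2 and 757 without the filter, with a range of 22 to 136. The 19 calls in flox females became 145 with DESeq2, 10 with limma-voom and 329 without the filter, with a range of 3 to 87. The cause was not tested. Replicate numbers are shared only by the female groups, and same-numbered females did not deviate together (correlations -0.2, -0.033 and -0.101); with a replicate block the female calls were 15 and the male minus female calls 47. Of 73 named genes called in flox males, 37 kept the call in each alternative run and 36 lost it in at least 1; 0 changed direction. With 3 libraries a group, genes near the threshold depend on single libraries.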
